A study of Mus musculus with 4 samples.

Results

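The genes described here encode the proteins of the mitochondrial ribosome, named Mrpl for the large subunit and Mrps for the small subunit, in the B16-F10 mouse melanoma cell line. A gene was a member when the accession of an array probe matched a mouse RefSeq symbol that starts with Mrpl or Mrps and a digit. Of 78 such protein-coding genes with a probe, 77 had a signal well above background on the 2 arrays of Met-low, of Met-high or of both, among 11958 genes that passed the same filter. Mrpl21 was well above background on no array and is given by name only. Each gene was represented by its brightest probe, and all 77 members were in fact well above background on all 4 arrays. Since the rule used the names of the genes and their brightness, and not the comparison of the populations, the comparison itself was open to test.

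The mitochondrial ribosome translates the few messenger RNAs that the mitochondrial genome encodes, nearly all of them for core subunits of the respiratory chain and ATP synthase. Its ribosomal RNAs come from the mitochondrial genome, whereas its proteins are encoded in the nucleus, made on cytosolic ribosomes and imported. Part of these proteins have counterparts in bacterial ribosomes, and the others are particular to mitochondria.

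B16-F10 cells were sorted by flow cytometry into a population with low and a population with high Met, the receptor for hepatocyte growth factor, on the cell surface. Met-low and Met-high cells were then cultured separately for 3 days with no further treatment, and each population was prepared independently 2 times for RNA, which was hybridised to 1-colour arrays. Both populations belong to the same unmodified cell line, and the sort by surface Met is the only difference that the labels give between them. The question of the comparison was which genes differ in expression between these populations.

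The 4 arrays shared 1 slide and 1 scan. Since Met-low took the positions 1 and 2 of the slide and Met-high 3 and 4, the effects of position and of population cannot be told apart. The melanocyte lineage markers fixed for the check, 9 of 9, were well above background on every array. Their summed signal relative to the 75th percentile of the array ranged from 1466 to 1570 on the replicate 2 arrays and was 1787 and 1790 on the replicate 1 arrays. The summed signal of the leukocyte, endothelial, fibroblast and keratinocyte lists stayed between 0.106 and 8.43, and Ptprc, Cdh5, Pdgfra, Dcn and Epcam were among the markers that were well above background on no array. Of the same lists, Cd3e, Itgam, Kdr and Col1a2 were well above background on all arrays. The fibroblast sum was 0.61 and 0.67 in Met-low and 0.29 and 0.31 in Met-high, and 1 of its markers was called higher in Met-low. The part of these markers in the results was not tested. Met itself had log2 signals of -0.26 and -0.89 on the Met-low arrays and of 1.03 and -0.43 on the Met-high arrays. The Met-high replicate 2 array thus lay below a Met-low array for the transcript of the protein used in the sort, and the difference of 0.87 (SE 0.51) had an adjusted p of 0.333 in limma.

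In the comparison of the populations, no mitochondrial ribosomal protein gene passed the test, but the members as a group lay toward higher signal in Met-high cells. The values are log2 signals after each array was scaled by its own 75th percentile, and the log2 ratio is the Met-high mean minus the Met-low mean. At an adjusted p under 0.05 over all 11958 genes, 0 of 77 members were called higher in Met-high and 0 in Met-low, where limma called 1.95% of all genes higher in Met-high and 3.82% higher in Met-low. At an unadjusted p under 0.05, 12 members were higher in Met-high and 0 in Met-low. These 12 made up 15.6% of the members, close to the 14.3% of all genes that reached this level in the same direction. With a higher signal in Met-low, 11.9% of all genes reached it. The lack of calls belongs to this fit, which ignores the replicate number. With that number as a block, limma called 20 of 77 members higher in Met-high, where it called 16.52% of all genes.

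The members were split less evenly by direction than all genes. The mean was higher in Met-high for 62 of 77 members, or 80.5%, where it was higher for 59.5% of all genes. The median log2 ratio of the members was 0.30, with quartiles of 0.10 and 0.42, beside a median of 0.10 over all genes. Of the members, 58 (75.3%) lay above that median of all genes. The 2 Met-high arrays both lay above the 2 Met-low arrays for 41 members (53.2%), where this held for 35.7% of all genes. The opposite order, without overlap, was found for 1 member (1.3%), Mrps14, and for 22.6% of all genes.

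These counts moved with the scaling of the arrays. When the 75th percentile was taken over probes detected on all arrays, the median of all genes moved from 0.10 to -0.05 and that of the members from 0.30 to 0.16, so that the distance between them stayed at 0.21. The members with a higher mean in Met-high were then 52, and the split without overlap became 25 members (32.5%) with Met-high above and 12 (15.6%) with Met-low above, where all genes gave 23.3% and 32.2% under the same scaling. Quantile normalization left a distance of 0.07 between the medians, with 26 members (33.8%) above and 12 (15.6%) below without overlap, where all genes gave 33.1% and 24.6%. A cyclic loess normalization, added after the values were seen, left a distance of 0.16, with 29 members (37.7%) above and 13 (16.9%) below, where all genes gave 28.5% and 27.7%. The share of members with Met-high above was thus level with that of all genes under quantile normalization. The median of the members was above 0 and above that of all genes under each of these scalings, although 27 of 77 members took the other sign under at least 1 of the alternatives run, arrays left out included.

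No member differed 2-fold between the populations. The log2 ratios ran from -0.19 for Mrps21 to 0.72 for Mrps34, whereas 2.43% of all genes were more than 2-fold higher in Met-high and 5.29% more than 2-fold higher in Met-low. The 95% interval of the ratio lay within 2-fold in either direction for 62 of 77 members, where it did for 8201 of 11958 genes. An interval above 0 is the same condition as an unadjusted p under 0.05 with a higher mean in Met-high. It therefore held for the same 12 members and adds nothing to that count.

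**Figure D1:**
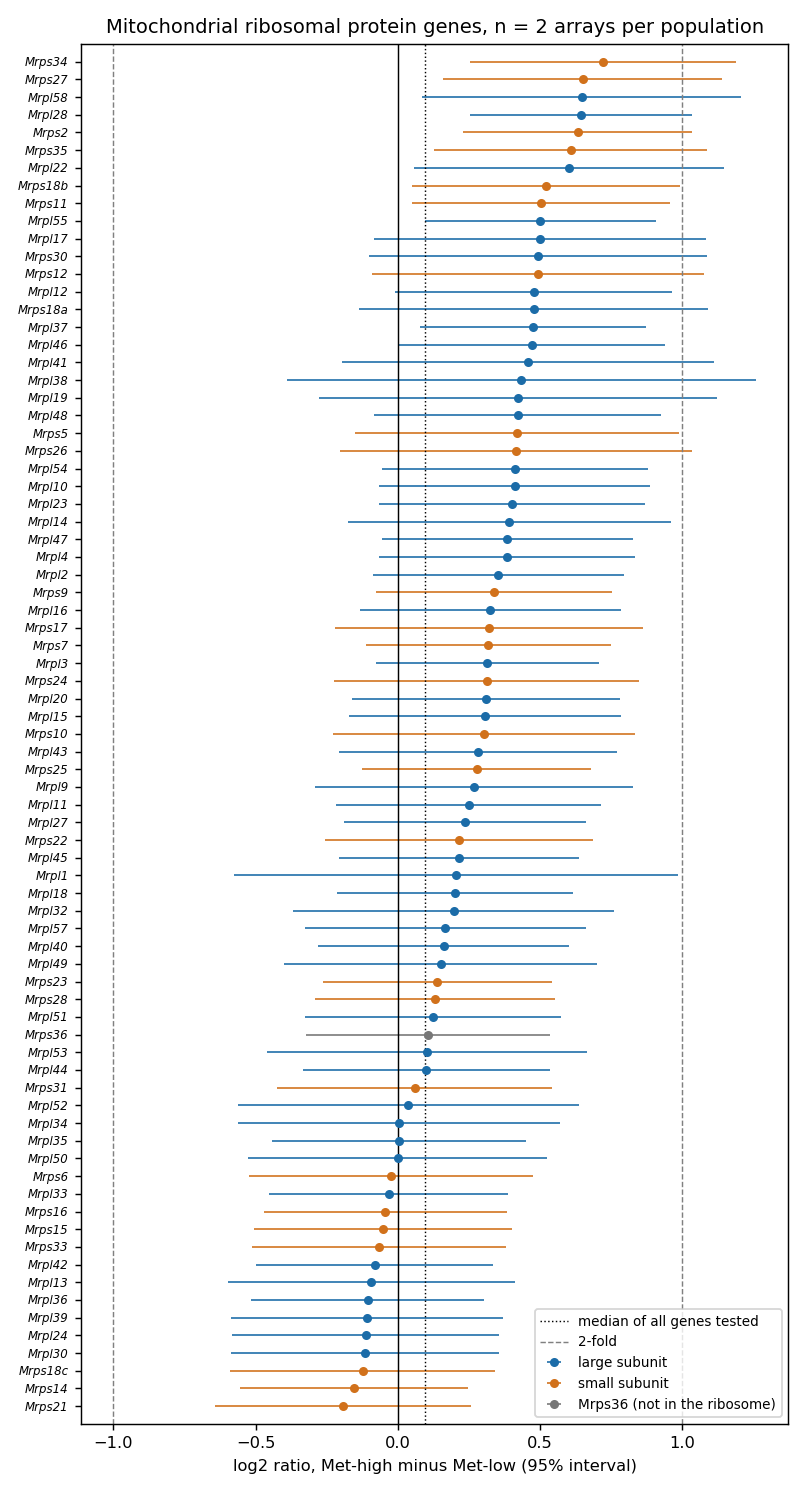
Log2 ratio of Met-high over Met-low for each of the 77 members (points, coloured by subunit) with the 95% interval from limma (bars), sorted by ratio. The dotted line is the median of all genes at 0.10 and the dashed lines mark 2-fold. Most points lie right of both 0 and the dotted line, and no point reaches 2-fold. Under the 75th percentile over detected probes all points move left together, which leaves 52 in place of 62 above 0.

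The 8 members with the largest ratios among those without overlap came from both subunits. In the small subunit, Mrps34, a protein particular to mitochondria and known to be needed for stability of the small subunit, had the largest ratio of the members. Its log2 signals were 3.43 and 3.59 in Met-low and 4.08 and 4.38 in Met-high. Both Met-high arrays lay above both Met-low arrays, with a ratio of 0.72 (SE 0.19, 95% interval 0.25 to 1.19), or 1.65-fold, and an adjusted p of 0.0899.

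Mrps27, a small subunit protein with pentatricopeptide repeats, had log2 signals of 0.11 and 0.26 in Met-low and of 0.65 and 1.02 in Met-high. Its ratio was 0.65 (SE 0.19, adjusted p = 0.12). The populations did not overlap, and the SD of the 2 arrays was 0.26 in Met-high and 0.10 in Met-low.

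Mrps2, the counterpart of bacterial S2, had log2 signals of 1.67 and 1.75 in Met-low and of 2.27 and 2.42 in Met-high. The replicates lay close together on both sides, and the ratio of 0.63 (SE 0.16) had an adjusted p of 0.0869. A second probe of Mrps2 gave -0.80 and -1.07 in Met-low and 0.07 and -0.48 in Met-high, again without overlap and with a ratio of 0.73.

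Mrps35, another small subunit protein particular to mitochondria, had log2 signals of 1.89 and 2.13 in Met-low and of 2.47 and 2.76 in Met-high. Mrps18b, a relative of bacterial S18, had log2 signals of 4.48 and 4.62 in Met-low and of 4.91 and 5.23 in Met-high. Neither overlapped between the populations, and the ratios were 0.61 for Mrps35 (adjusted p = 0.13) and 0.52 for Mrps18b (adjusted p = 0.161).

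In the large subunit, Mrpl58 had the largest ratio. Also known as Ict1, it is an integral subunit derived from a release factor that can free nascent chains from stalled ribosomes. Its log2 signals were 3.81 and 4.25 in Met-low and 4.53 and 4.82 in Met-high, a ratio of 0.65 (SE 0.22, adjusted p = 0.151). The populations did not overlap, yet the gap between the nearest arrays was smaller than the spread between the Met-low arrays.

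Mrpl28, the counterpart of bacterial L28, had log2 signals of 2.56 and 2.61 in Met-low and of 3.19 and 3.27 in Met-high. This was the tightest agreement between replicates among these 8 genes, and the ratio of 0.64 (SE 0.15, 95% interval 0.25 to 1.03) had the smallest adjusted p of the members, 0.0777.

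Mrpl22, whose bacterial counterpart lines the exit tunnel for the nascent chain, had log2 signals of 3.64 and 3.96 in Met-low and of 4.21 and 4.59 in Met-high. Its ratio was 0.60 (SE 0.22, adjusted p = 0.162), and a second probe gave 0.61, with values of 1.07 and 1.73 in Met-low and of 1.67 and 2.35 in Met-high. On the second probe the arrays of the populations overlapped.

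Mrps14, the counterpart of bacterial S14, was the member with both Met-low arrays on top. Its log2 signals were 3.11 and 3.16 in Met-low and 2.91 and 3.05 in Met-high, and the ratio was -0.15 (SE 0.16, adjusted p = 0.57). A second, dimmer probe went the other way, with -1.40 and -1.33 in Met-low and -1.05 and -1.48 in Met-high and a ratio of 0.10, so no direction held over both probes.

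**Figure D2:**
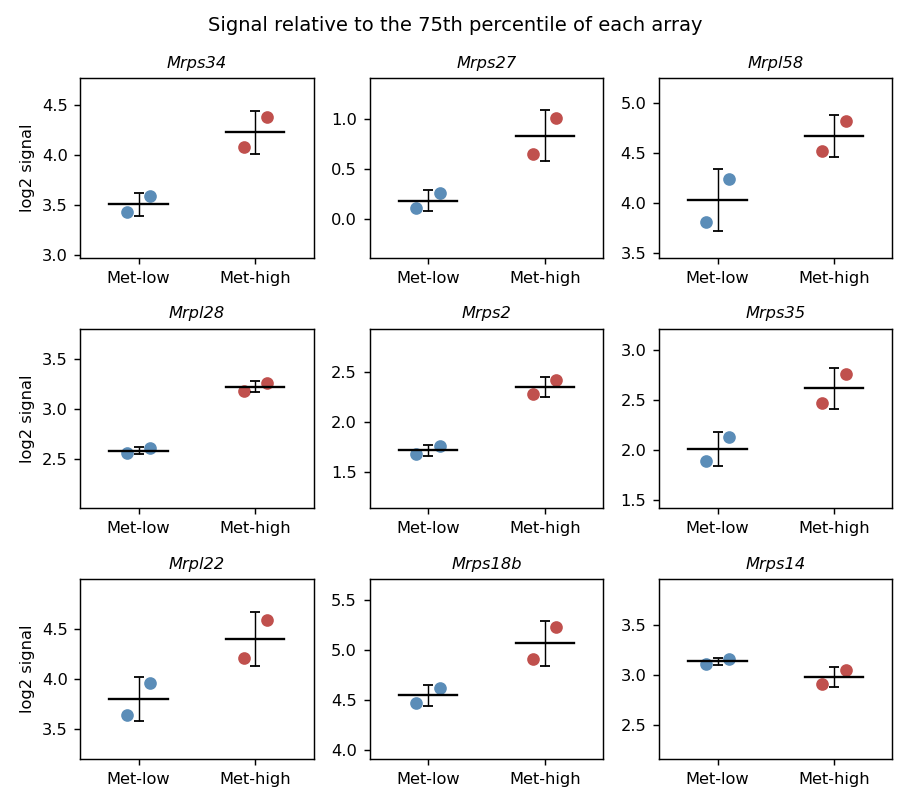
Log2 signal relative to the 75th percentile of the array for the 8 members with the largest ratios without overlap and for Mrps14. Points are single arrays, replicate 1 left and replicate 2 right, and bars give the mean and SD of 2 arrays per population. Every panel spans the same range of log2 units around its own mean. In all 8 the Met-high points stand above the Met-low points, and replicate 2 stands above replicate 1 in each population.

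The promoters of these genes are shown for the motifs they hold, since the members are transcribed from separate nuclear loci. The promoter table of RefSeq for the mouse assembly GRCm38.p6 held windows of 300 bases, from 250 bases before to 50 after a start of transcription, for 69 of 78 members (75 windows, as some genes have several starts) and 32851 windows in all. Of the 8 genes with the largest ratios, 6 matched a window, all but Mrps34 and Mrps35. The 150 bases before the start follow for the 3 of them whose stretch holds the ETS core, for Mrpl28, whose stretch holds none of the motifs searched, and for Mrps14, with matches to the motifs in capitals.
Mrps27, chr13:99344636-99344785, + strand: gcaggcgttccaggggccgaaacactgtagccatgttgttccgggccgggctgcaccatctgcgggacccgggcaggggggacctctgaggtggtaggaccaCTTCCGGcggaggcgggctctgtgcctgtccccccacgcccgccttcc
Mrpl58, chr11:115403602-115403751, + strand: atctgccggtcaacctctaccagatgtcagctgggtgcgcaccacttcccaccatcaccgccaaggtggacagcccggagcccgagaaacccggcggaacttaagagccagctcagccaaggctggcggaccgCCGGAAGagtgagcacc
Mrpl22, chr11:58171514-58171663, + strand: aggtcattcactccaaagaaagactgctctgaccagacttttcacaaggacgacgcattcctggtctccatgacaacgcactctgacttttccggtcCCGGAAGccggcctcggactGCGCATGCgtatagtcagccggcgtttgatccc
Mrpl28, chr17:26123353-26123502, + strand: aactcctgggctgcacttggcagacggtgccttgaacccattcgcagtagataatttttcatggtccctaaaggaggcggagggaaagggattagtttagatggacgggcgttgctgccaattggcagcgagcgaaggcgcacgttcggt
Mrps14, chr1:160195065-160195214, + strand: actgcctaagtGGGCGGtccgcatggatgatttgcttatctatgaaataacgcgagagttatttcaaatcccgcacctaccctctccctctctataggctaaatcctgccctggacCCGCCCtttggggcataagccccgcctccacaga

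The capitals mark the ETS core in Mrps27, Mrpl58 and Mrpl22, followed in Mrpl22 by the core of the NRF1 site, and the Sp1 box on either strand in Mrps14. Of the stretches not printed, that of Mrps2 also held none of the motifs and that of Mrps18b held the Sp1 box alone. ETS factors such as the GA-binding protein and the factor NRF1 are known regulators of nuclear genes for mitochondrial proteins. Each motif was searched on both strands of the whole window. The ETS core CCGGAAG was in 26 of 75 windows of members (34.7%) and in 8.86% of all windows. The NRF1 core GCATGCGC was in 8 (10.7%, against 2.71% of all windows) and the YY1 motif AAGATGG in 13 (17.3%, against 6.34%). The end of the ETS core equals the beginning of the YY1 motif, so that a stretch can hold both.

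The Sp1 box GGGCGG was in 39 windows (52%, against 35.7%) and the E-box CACGTG in 7 (9.33%, against 7.15%). The windows of the members were also richer in G and C, with a median of 58.7% against 52.7% over all windows, and the part of base composition in these shares was not tested. All windows were not limited to the genes that passed the filter on dim probes, and the part of this in the shares was not tested either. The share of windows with a motif thus differed between the members and all windows as a description. The median ratio was lower in members with the ETS core and higher in members with each other motif. The 25 members with the ETS core had a median log2 ratio of 0.21 and the 43 without it 0.30. For the NRF1 core the medians were 0.34 in 8 members with it and 0.26 in 60 without. With and without the motif they were 0.31 and 0.27 for YY1, 0.31 and 0.27 for the E-box and 0.30 and 0.26 for the Sp1 box. These differences were not tested.

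The members of both subunits lay mostly on the Met-high side, and the difference between the subunits was not tested. The large subunit, with 50 members that include Mrps18a and Mrps30 by their known place, had a median log2 ratio of 0.29, with a higher mean in Met-high for 42 (84%). The small subunit had a median of 0.31, with a higher mean in Met-high for 19 of 26 (73.1%). The 12 members at an unadjusted p under 0.05 were 6 of the large and 6 of the small subunit, with adjusted p from 0.0777 to 0.189 in limma. Beside the 8 described above they held Mrps11, Mrpl55, Mrpl37 and Mrpl46, with ratios between 0.47 and 0.50.

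The proteins with a bacterial counterpart had a median of 0.31 over 47 members, with 28 (59.6%) without overlap and Met-high above. Those particular to mitochondria had a median of 0.21 over 29 members, with 13 (44.8%) without overlap and Met-high above, where the share over all genes was 35.7%. The difference between these groups was not tested. Mrps36, now known as a subunit of the alpha-ketoglutarate dehydrogenase complex and not of the ribosome, had a ratio of 0.11 (SE 0.17), which was -0.04 under the percentile over detected probes, and was counted in neither subunit.

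Within the large subunit, the members were also grouped by their place in the particle, a grouping made after the values were seen. The members named do not stand for all proteins of a place. In the stalk, which recruits translation factors, and at its base, Mrpl12 had log2 signals of 5.51 and 5.70 in Met-low and of 5.91 and 6.25 in Met-high, with a ratio of 0.48 (adjusted p = 0.197). Mrpl10, which carries the Mrpl12 dimers, had a ratio of 0.41, Mrpl11 of 0.25 and Mrpl53 of 0.10. The populations did not overlap for Mrpl10, Mrpl11 and Mrpl12, whereas Mrpl53 overlapped and turned to -0.04 under the percentile over detected probes.

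In the central protuberance, Mrpl46 had the log2 signals 1.53 and 1.72 in Met-low and 1.95 and 2.24 in Met-high. Mrpl38 had the widest interval of the members, from -0.39 to 1.26 around a ratio of 0.43, with signals of 1.003 and 1.60 in Met-low and of 1.37 and 2.10 in Met-high. The replicates of Mrpl38 differed more than the populations did. Mrpl48 had a ratio of 0.42 and Mrpl40 of 0.16, which turned to -0.02 under quantile normalization.

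Around the tunnel exit, Mrpl22, Mrpl23, Mrpl45 and Mrpl47 had ratios between 0.21 and 0.60 without overlap, and Mrpl24 had a ratio of -0.11, which changed sign without Met-high replicate 1. Mrpl45 faces the inner membrane, where the products of this ribosome are inserted. Its signals of 3.29 and 3.05 in Met-low and of 3.37 and 3.40 in Met-high gave a ratio of 0.21 (SE 0.17), with the Met-high arrays close together. Mrpl2, Mrpl3 and Mrpl4, counterparts of bacterial proteins that bind the ribosomal RNA deep in the particle, had ratios of 0.35, 0.31 and 0.38, all without overlap.

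In the small subunit, Mrps12, the counterpart of the bacterial S12 of the decoding centre, had log2 signals of 3.75 and 4.08 in Met-low and of 4.18 and 4.64 in Met-high and a ratio of 0.49 (adjusted p = 0.248). Mrps7, Mrps9 and Mrps10, counterparts of proteins of the bacterial head, had ratios of 0.32, 0.34 and 0.30, each without overlap. These small subunit members were also picked after the values were seen, and they do not stand for all proteins of the head. In that subunit 7 members had a lower mean in Met-high, among them Mrps14 with a ratio of -0.15.

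The 3 relatives of bacterial S18 did not go together. Mrps18a had a ratio of 0.48 and Mrps18b of 0.52, whereas Mrps18c had signals of 3.16 and 3.48 in Met-low and of 3.15 and 3.25 in Met-high and a ratio of -0.12 (SE 0.18). The difference between the paralogues was not tested. Mrps18c was 1 of 15 members with a lower mean in Met-high, 8 of the large and 7 of the small subunit, with ratios from -0.19 to -0.00 and adjusted p of 0.529 and higher. Mrps21, at the end of that range, had signals of 5.85 and 5.60 in Met-low and of 5.62 and 5.44 in Met-high, which overlapped.

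The spread between replicates was of the size of the difference between populations. The median absolute difference between replicates was 0.20 in Met-low and 0.29 in Met-high over the members, beside a median absolute ratio of 0.30. Over all genes the same values were 0.22, 0.23 and 0.30. Replicate 2 lay above replicate 1 for 72 of 77 members (93.5%) in Met-high and for 69 of 77 (89.6%) in Met-low, where this held for 54.7% and 51.9% of all genes.

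Taken by array, the median deviation of the members from their own mean over the 4 arrays was -0.23 on the Met-low replicate 1 array and -0.03 on the Met-low replicate 2 array. It was -0.00 on the Met-high replicate 1 array and 0.27 on the Met-high replicate 2 array. Over all genes these medians stayed between -0.04 and 0.06. Met-high replicate 2 and Met-low replicate 1 thus lay at the ends, and the remaining arrays were nearly level. The SD of the array medians within a population was 0.16, pooled over both.

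Compared array by array, Met-high replicate 2 was above Met-low replicate 1 for 75 members (97.4%) and Met-high replicate 1 above Met-low replicate 2 for 42 (54.5%), where each held for 56.8% of all genes. Between arrays of the same number, Met-high was above Met-low for 61 members (replicate 1) and 64 members (replicate 2). The 75th percentile of the intensity, on which the arrays were scaled, was also higher for replicate 2, with 942 and 1331 in Met-low and 858 and 1111 in Met-high, and its part in these shifts was not tested. Without the Met-high replicate 2 array, the members' median lay 0.07 above that of all genes, and without Met-low replicate 1, 0.10 above, where all 4 arrays gave 0.21. Without Met-low replicate 2 it was 0.31 and without Met-high replicate 1 it was 0.28.

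**Figure D3:**
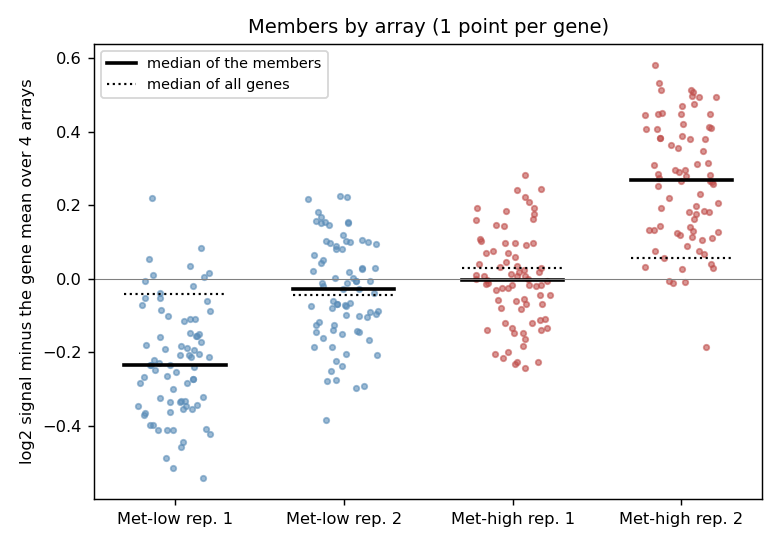
Deviation of each member's log2 signal from its own mean over the 4 arrays, by array, 1 point per gene, with the median of the 77 members (solid line) and of all genes tested (dotted line). The members sit lowest on Met-low replicate 1, at a median of -0.23, and highest on Met-high replicate 2, at 0.27, and the other arrays lie near 0.

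A second probe of the same gene was well above background on both arrays of a population for 22 members. The ratios of the brightest and of the second probe had the same sign for 19 of these 22, and they lay within 0.2 of each other for 18, with a median absolute difference of 0.08. Probes of a gene share the RNA and the array, so they are no further replicates.

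Mrpl41 stood apart in this comparison. Its brightest probe gave log2 signals of 3.42 and 3.94 in Met-low and of 3.92 and 4.36 in Met-high, with a ratio of 0.46 (SE 0.26, adjusted p = 0.318). Its second probe gave -2.74 and -3.36 in Met-low and -6.05 and -3.87 in Met-high, a calculated ratio of -1.91. The second probe was not well above background on the Met-high replicate 1 array, and no direction is given for the gene.

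The other genes of mitochondrial translation were set beside the members by their counts and medians, with lists drawn up when earlier results of these data were known. None of their genes passed the adjusted threshold in limma in either direction. The mean was higher in Met-high for 5 of 6 other proteins of the mitochondrial ribosome or at its exit, with a median log2 ratio of 0.32. Dap3, a GTP-binding small subunit protein, had signals of 4.87 and 4.81 in Met-low and of 5.24 and 5.20 in Met-high and a ratio of 0.38 (adjusted p = 0.194). Oxa1l, which inserts the products of this ribosome into the inner membrane, had a ratio of 0.44 (adjusted p = 0.151). Neither gene overlapped between the populations.

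Factors for assembly of the mitochondrial ribosome and modification of its RNA had a higher mean in Met-high for 25 of 28 genes, with a median of 0.33. Among them Mrm3, which methylates the large ribosomal RNA, had a ratio of 0.96 (adjusted p = 0.0811) and Eral1, which binds the small ribosomal RNA, 0.83 (adjusted p = 0.114). The mitochondrial aminoacyl-tRNA synthetases, which charge the transfer RNAs, had a median of 0.34, with a higher mean in Met-high for 16 of 18. That count was 11 of 18 under the percentile over detected probes and 13 of 18 under quantile and cyclic loess normalization. Iars2, for isoleucine, and Wars2, for tryptophan, were the genes with a lower mean, with ratios of -0.03 and -1.01 (adjusted p = 0.932 and 0.0765). The translation factors had a median of 0.29, with 9 of 14 higher, among them the elongation factors Tufm (0.37) and Tsfm (0.66). These genes were picked out after their values were seen.

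Transcription, RNA processing and genome upkeep had a median of 0.20, with a higher mean in Met-high for 21 of 29 genes. That count was 15 of 29 under the 75th percentile over detected probes. Tfam, the main packaging factor of mitochondrial DNA, had a ratio of 0.38 (adjusted p = 0.199). Slirp, the gene of this list furthest toward Met-low, had a ratio of -0.50 without overlap (adjusted p = 0.124 in limma). Under quantile or cyclic loess normalization and under the 75th percentile over detected probes, the medians of these 5 lists lay between 0.05 and 0.24, above 0 as with the main scaling. Named regulators of mitochondrial biogenesis had a median of 0.05 with 8 of 15 higher, which turned to -0.09 with 5 of 15 higher under the percentile over detected probes. Ppargc1a, a coactivator of such genes, had signals of -0.01 and 0.07 in Met-low and of -0.76 and -1.31 in Met-high. Its ratio was -1.06 without overlap (adjusted p = 0.0636), and Nrf1 had a ratio of 0.36 (adjusted p = 0.401) with overlap. The genes of the GA-binding protein went different ways. Gabpa had a ratio of -0.39 and Gabpb1 of 0.37, both without overlap (adjusted p = 0.224 and 0.254 in limma), and Gabpb2 of -0.18 with overlap.

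The lists of mitochondrial translation, with medians from 0.29 to 0.34, lay near the members' median of 0.30, so the shift was not particular to the members. The lists of cytosolic ribosomal proteins, of the respiratory chain and ATP synthase and of protein import lay closer to 0. The cytosolic ribosomal proteins, 78 genes of the other ribosome of the cell, had a median of 0.02 with 43 higher and 35 lower in Met-high, a split that turned to 9 and 69 under the 75th percentile over detected probes. The nuclear genes of the respiratory chain and ATP synthase, the complexes that the products of this ribosome join, had a median of 0.05 over 83 genes, with 48 higher and 35 lower, turning to 27 and 56. Protein import had a median of 0.09 over 23 genes, turning to -0.05. Quantile and cyclic loess normalization put the medians of these 3 lists below 0 as well. Set against the median of all genes, the cytosolic ribosomal proteins lay at -0.08 with the main scaling and at -0.16 and -0.14 with quantile and cyclic loess normalization, where the members lay at 0.21, 0.07 and 0.16. The distance between the members and these lists was not tested.

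**Figure D4:**
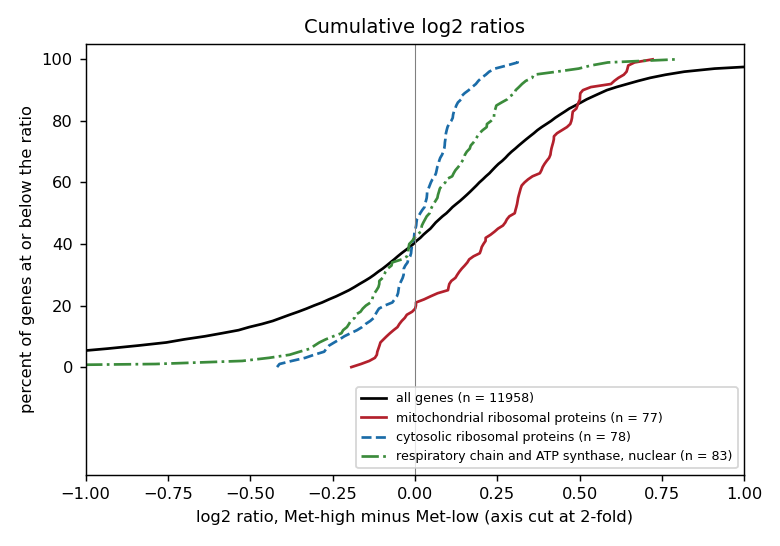
Cumulative share of genes (vertical axis, percent) at or below each log2 ratio of Met-high over Met-low (horizontal axis, shown to 2-fold) for the members, all genes, the cytosolic ribosomal proteins and the nuclear genes of the respiratory chain. The curve of the members lies right of the others in its lower and middle parts, with a median of 0.30 beside 0.10, 0.02 and 0.05. The last 2 medians fall to -0.13 and -0.10 under the 75th percentile over detected probes, and the members' median to 0.16.

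**Figure D5:**
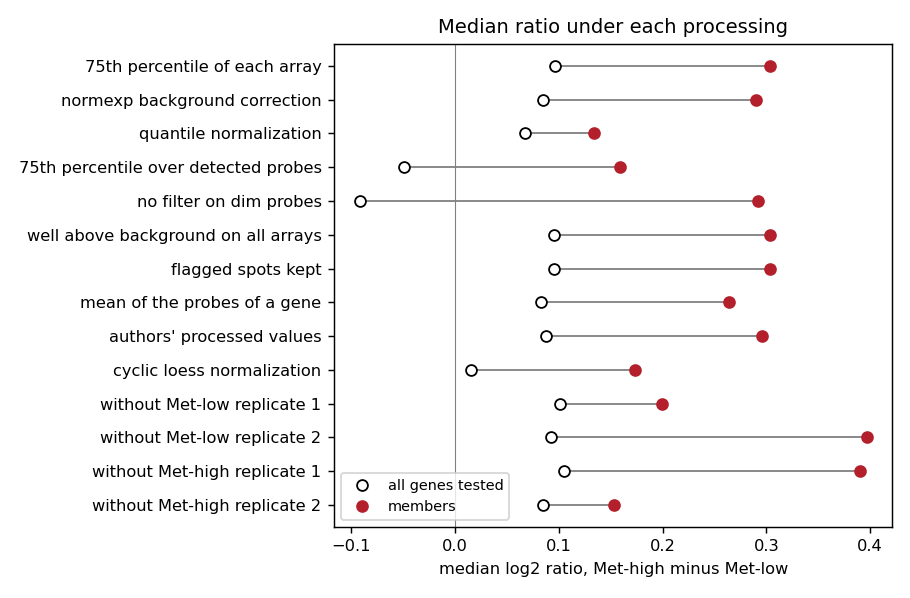
Median log2 ratio of Met-high over Met-low for the members (filled) and for all genes tested (open) under each way of processing and without each array, with lines joining the pair. The filled point lies right of the open point in every row, and the distance runs from 0.07 under quantile normalization and without Met-high replicate 2 to 0.39 with no filter on dim probes, where the median of all genes is -0.09.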

How the data were processed

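RNA of 2 Met-low and 2 Met-high samples was measured. The authors deposited the scanner output of Agilent Feature Extraction, in which each spot has a background-corrected intensity, and their own processed log2 table. Compared with the scanner files, the deposited log2 values were the intensities scaled by the array's 75th percentile and centred on each probe's median (93.3% to 99.8% of probes within 0.01).

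Here the intensities were taken to log2 and scaled by the array's 75th percentile, found over its 43020 non-control spots, 207 to 232 flagged outliers per array were left out, and spots of a probe were averaged. Spots well above background made up 50.0% to 53.6% of an array, and 0 were saturated. Of 39429 probes, 27427 matched a RefSeq symbol by accession, and the 12002 others were left out, giving 20832 genes. The brightest probe stood for a gene. Genes were kept where 1 population was well above background on both of its arrays. The test was lmFit with eBayes from limma 3.58.1 (R 4.3.3), two-sided, with Benjamini-Hochberg adjustment over 11958 genes. With 2 arrays against 2, the number of arrays limits the precision. The p-values set the difference between the populations against the spread between these samples within a population.

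The members, lists and tests were chosen with earlier results of these data known. By rule the 8 members with the largest ratio in each direction among those without overlap, members whose probes disagreed by over 0.5, and the member that failed the filter were named, and others by their role or after their values were seen. The fit was tested on simulated data of the same design. Alternatives in processing were normexp (offset 50) on the median spot and background signals, quantile normalization, the percentile over detected probes and cyclic loess (chosen after seeing the data). Other filters, keeping flagged spots, averaging a gene's probes and the authors' values were also run. Alternatives in the test were an eBayes trend, the Student test and the replicate number as a block. The paper names the Student test for comparisons of 2 groups in general and not for its arrays. Each array was also left out, where the fit gave a lone array the spread seen in the other population. Figures used matplotlib 3.10.9, numpy 2.4.6 and pandas 2.3.3 in Python 3.11.15.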

Additional observations from a re-analysis of the deposited data

How the results depend on the processing

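The lack of calls held under each other way of processing the 4 arrays, but not under every alternative to the test. Some settings could hardly call a member. With no filter on dim probes, limma called 0 of 20832 genes higher in Met-high and 7 higher in Met-low. Fits with an array left out rest on a lone array in a population, and their calls are not counted here. A mean-variance trend in eBayes called 2 members higher in Met-high, Mrpl28 and Mrps34, where it called 3.28% of all genes in that direction. The Student test without adjustment gave 5, Mrpl28, Mrpl3, Mrpl37, Mrpl55 and Mrps2, where it called 10.6% of all genes higher in Met-high. After Benjamini-Hochberg adjustment it gave 0, where it called 1 of 11947 genes in that direction. The replicate block gave 20, where it called 16.52% of all genes higher in Met-high. Deviations of samples with the same number correlated at 0.539 over 11947 genes. There are only 2 pairs and the labels state no shared preparation. The source of this correlation was not tested, and the labels do not settle whether the samples are paired.

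Members without overlap and Met-high above numbered 26 under quantile normalization, 25 under the percentile over detected probes and 41 to 64 with an array left out. Those with Met-low above numbered 2 under normexp, 12 under quantile normalization, 12 under the percentile over detected probes, 13 under cyclic loess and 2 to 15 with an array left out, where a single array in a population makes the absence of overlap easier to reach. The shares of all genes without overlap are not given for normexp or for the arrays left out. Those counts are therefore no result about the members in particular. The distance of the members' median from that of all genes was 0.385 with no filter on dim probes, since the genes added lowered the median of all genes, and 0.068 to 0.305 with an array left out. Mrpl41 reversed to -0.726 with the mean of its probes. The other 9 members chosen by rule for their ratio kept their sign under the alternatives run, Mrps14 at -0.027 with the mean of its probes. They were chosen for arrays without overlap, so leaving out an array could not change their sign. Their kept sign is therefore no further result about these 9. Of all 77 members, 27 took the other sign under at least 1 alternative, Mrpl53 and Mrps36 among them. With 0 saturated spots, signal over background limited Mrpl21 and the second probe of Mrpl41.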
